A study of Rattus norvegicus with 20 samples.

Results

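Of the Krüppel-like factors, zinc finger transcription factors, 10 genes were described: Klf2, Klf3, Klf4, Klf5, Klf6, Klf7, Klf9, Klf10, Klf13 and Klf15. The rule takes them by gene symbol and uses no measured value, though the family was picked with earlier results of these data known. Every probe set that the platform's gene table assigns to 1 of these genes and no other was taken. A probe set is a group of short array probes that together report 1 transcript. This gave 28 of the 31099 probe sets of the array, and 7 of the 10 genes had more than 1. RNA was taken from the nucleus accumbens shell, part of the ventral striatum and of the brain's reward circuit. The animals were alcohol-preferring (P) rats, selectively bred to drink much ethanol by choice. In adolescence the 10 animals of the ethanol group could drink ethanol solutions of 15 and 30%. The 10 animals of the water group drank water alone. Both groups were P rats, so no strain without the preference was compared, and each animal gave 1 array. The sources used here do not give ages beyond adolescence, amounts drunk or the time between drinking and tissue collection. The question was whether transcript levels differed between rats that had and had not had access to ethanol.

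Krüppel-like factors bind GC-rich DNA, mainly CACCC and GC boxes, through zinc fingers at the end of the protein, while the rest of the protein recruits coactivators or corepressors. Several are themselves induced quickly: Klf2, Klf4, Klf6 and Klf10 belong to the genes that cells switch on soon after a stimulus, and Klf9 and Klf15 are targets of the glucocorticoid receptor. In the nervous system members of the family promote or restrain the growth of axons, and Klf2 and Klf4 are best known from the endothelium of blood vessels.

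All values are levels on the log2 scale, so a difference of 1 is a doubling, and each difference is ethanol minus water. A probe set was tested if its mean over all arrays lay above 6.65, the level under which the dimmest 33.3% of probe sets fall. Of the 28 Krüppel-like probe sets 21 lay above it and were tested. The other 7 had means of 5.23 to 6.52 and are given by their values, except where a test without the filter or the check for outlying animals is named. Tests were made with limma, a linear model fitted across all probe sets, and p-values were adjusted over all 20695 probe sets tested (Benjamini-Hochberg, threshold 0.05). A probe set's brightness depends on its probes, so the level of 1 probe set was not compared with that of another.

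Array medians lay between 7.93 and 7.98. Of 18 markers of the medium spiny neuron, the main cell type of the striatum, 17 were measured, with gene means of 10.97 to 14.44. No other tissue was compared, so they do not place the samples in the shell. The mean of these markers stood at 11.96, 12.21 and 11.68 in water animals 17, 19 and 20, while all other animals lay between 12.46 and 13.09. The arrays of water animals 12, 17 and 20 correlated less with the other arrays than the rest did. Water animals 17, 19 and 20 also stood apart for several Krüppel-like factors, so for several members the difference without them is given too. The 3′ minus 5′ value, the signal of control probe sets at the 3′ end of actin and GAPDH transcripts less that at the 5′ end, rises as RNA degrades. It was 1.21 ± 0.12 in ethanol and 1.40 ± 0.22 in water (SD, n = 10 each; difference -0.20, two-sided permutation test of 100000 resamples, p = 0.0218). In bulk tissue fewer cells of a type and less RNA per cell cannot be told apart.

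Klf2 alone among the 10 genes passed the test, and it rose. Of the 21 probe sets tested 1 was called, beside 0.0966% of all probe sets, and by the probe set with the highest mean of each gene 1 of 10 genes was called, beside 0.0931% of all genes. The other 20 probe sets had adjusted p-values of 0.173 to 0.987. Unadjusted p-values under 0.05 were found for 9 of the 21, of which 4 were higher and 5 lower in ethanol, where 12.1% of all probe sets were under that value. Several of these 9 report the same gene and are not independent. The median size of the difference, regardless of sign, was 0.13 over the 21 probe sets and 0.0577 over all probe sets tested. In none of the 21 were the groups fully apart, and the share over all probe sets was not counted.

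**Figure D1:**
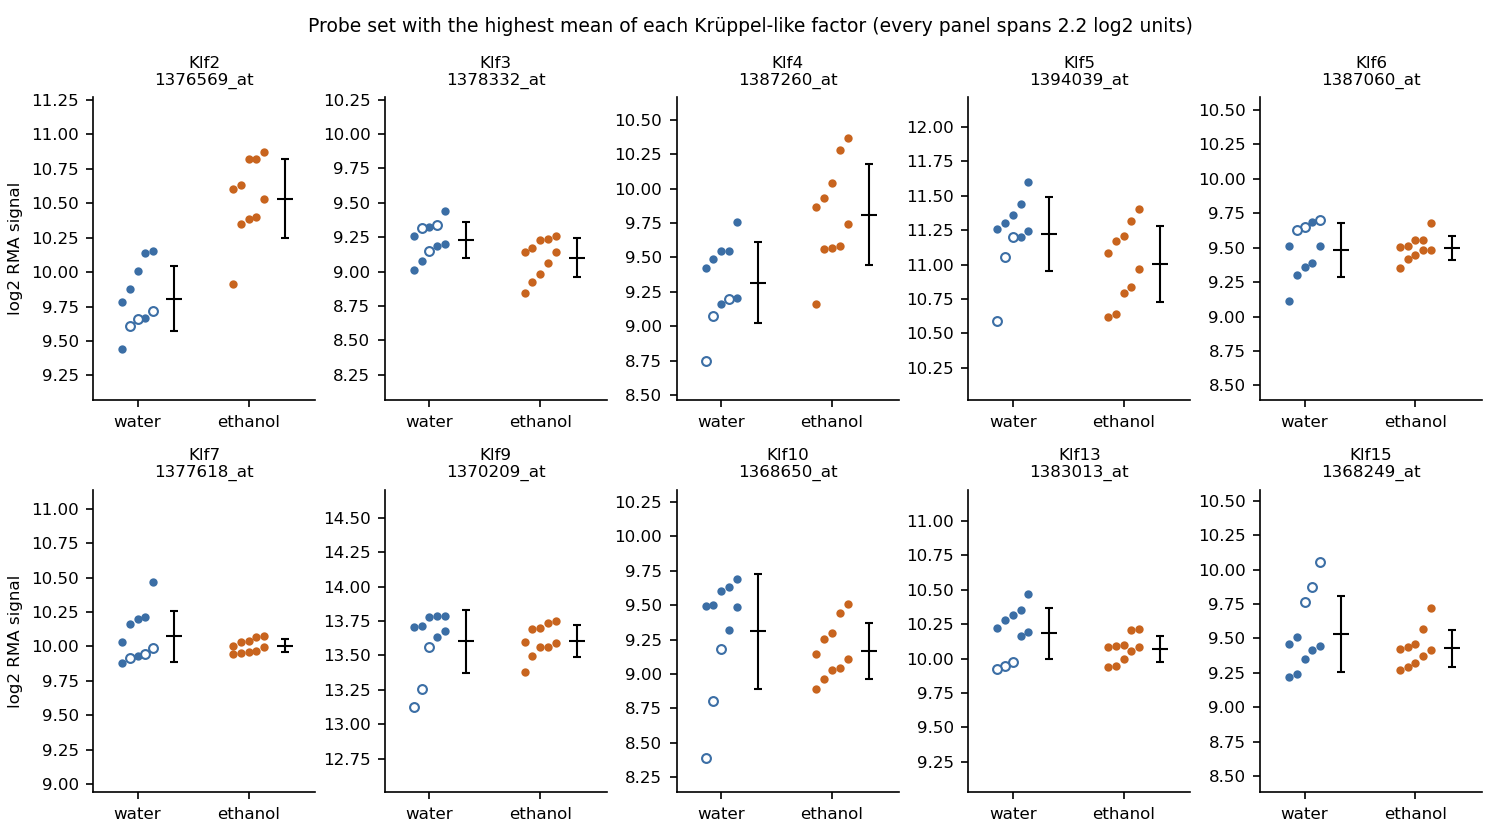
Log2 level of each animal (vertical axis) in the ethanol and water groups for the probe set with the highest mean of each of the 10 Krüppel-like factors; bars show the mean ± SD of 10 animals and open circles are water animals 17, 19 and 20. Klf2 has 9 of 10 ethanol animals above the highest water animal, and in Klf9, Klf10, Klf13 and Klf15 the open circles lie at an edge of the water group.

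Klf2 and Klf4, related factors of the endothelium that are also induced by cell activation, were the members with the largest positive differences. On Klf2 probe set 1376569_at the ethanol animals had a lowest, median and highest level of 9.92, 10.57 and 10.87, and the water animals 9.44, 9.75 and 10.16. Of the ethanol animals 9 of 10 lay above the highest water animal, and ethanol animal 1, the lowest, lay inside the water range. The means were 10.53 ± 0.29 and 9.81 ± 0.24 (SD, n = 10 each), a rise of 0.73 ± 0.11 (SE; 95% interval 0.50 to 0.96), which is 1.66-fold (limma, adjusted p = 0.00343; permutation test of this value alone, p = 6e-05). Leaving out any 1 array gave differences of 0.69 to 0.80, all past the threshold (limma, adjusted p = 0.000496 to 0.0107). The Klf2 1376569_at difference was 0.67 without water animals 17, 19 and 20 and 0.76 after adjusting for the 3′ minus 5′ value, and passed both times (limma, adjusted p = 0.0254 and 0.0308).

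The 5 Klf2 probe sets fell into those that differed between the groups and those that hardly did. Probe set 1386041_a_at had a lowest, median and highest level of 6.23, 7.42 and 7.88 in ethanol and 5.68, 6.76 and 7.14 in water. Here too 9 of 10 ethanol animals were above the highest water animal, and the exception was again ethanol animal 1. Its difference of 0.79 (95% interval 0.39 to 1.18) was as large as that of 1376569_at but did not pass, with a standard error of 0.19 against 0.11 (limma, adjusted p = 0.173). Without ethanol animal 1 it was 0.92 and passed (limma, adjusted p = 0.0158). Its water mean of 6.59 lay just under the level of 6.65 used as filter.

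The other Klf2 probe sets gave small differences. The level on 1375248_at was 8.63 ± 0.09 in ethanol and 8.58 ± 0.10 in water (SD), a difference of 0.05 with a 95% interval of -0.04 to 0.15 (limma, adjusted p = 0.639). For 1394068_x_at it was 7.34 ± 0.19 and 7.24 ± 0.15, a difference of 0.11 with an interval of -0.05 to 0.26 (limma, adjusted p = 0.554). On 1386040_at, under the filter, the means were 5.24 and 5.23. The intervals of 1375248_at and 1394068_x_at end below the lower bound of 1376569_at. The platform's gene table names the same source sequence for 1394068_x_at and 1386041_a_at, whose differences were 0.11 and 0.79. The suffix x marks probes that can also match other transcripts, and a marks a probe set that matches several transcripts of 1 gene.

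Whether probe sets of a gene gave unequal differences was tested on the difference between them in each array, over all 17 pairs within a gene (permutation test of 100000 resamples, Benjamini-Hochberg over the pairs). The test passed for 4 pairs, all of Klf2. That the Klf2 probe sets differ was known from these data before, so the test gives sizes and is not separate evidence. The share of such pairs that pass within other genes was not counted. The rise on 1376569_at exceeded the difference on 1375248_at by 0.68 and that on 1394068_x_at by 0.62 (permutation, adjusted p = 0.000765 for both). Taken the other way round, 1375248_at and 1394068_x_at differed from 1386041_a_at by -0.74 and -0.68 (permutation, adjusted p = 0.0089 and 0.00939). Between 1376569_at and 1386041_a_at the difference was -0.06 (permutation, adjusted p = 0.837), and with group means taken off their levels correlated over the 20 arrays with r = 0.86. Without water animals 17, 19 and 20 the pairs of 1376569_at still passed, and those of 1386041_a_at did not (permutation, adjusted p = 0.0548 and 0.0601). As a mean over its probe sets above the filter Klf2 differed by 0.42 and did not pass (limma, adjusted p = 0.0862). Which transcript ends or neighbouring sequences these probe sets match was not tested.

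**Figure D2:**
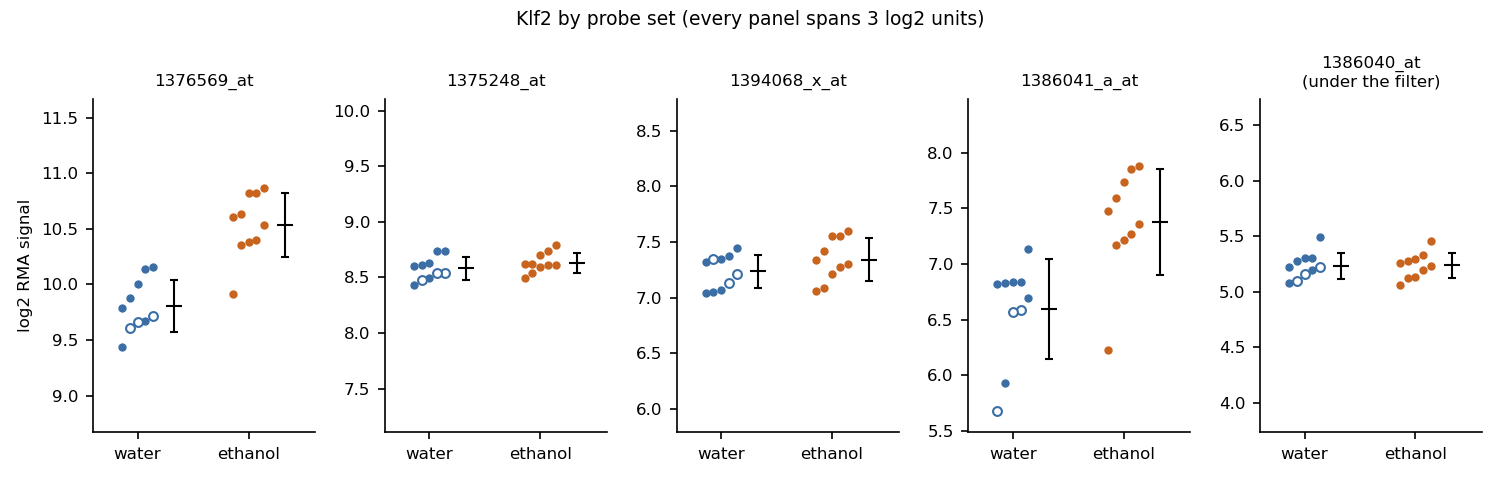
Log2 level of each animal (vertical axis) on each of the 5 Klf2 probe sets, by group; bars show the mean ± SD of 10 animals and open circles are water animals 17, 19 and 20. The groups are shifted on 1376569_at (by 0.73) and 1386041_a_at (by 0.79), and lie on top of each other on the other 3 probe sets.

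Klf4, which helps to hold epithelia and endothelia in a differentiated state and is known as a reprogramming factor, had 1 probe set. Its lowest, median and highest levels were 9.16, 9.81 and 10.37 in ethanol and 8.75, 9.32 and 9.76 in water. The groups overlapped more than for Klf2, with 5 of 10 ethanol animals above the highest water animal and ethanol animal 1 again the lowest of its group. The difference was 0.50 ± 0.14 (SE; 95% interval 0.21 to 0.78; 1.41-fold) and did not pass (limma, adjusted p = 0.228). Water animals 17 and 19 had the lowest levels of all animals, 8.75 and 9.08, and without animals 17, 19 and 20 the difference was 0.36 (limma, adjusted p = 0.339).

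Markers of endothelial cells, in which Klf2 and Klf4 are well known, did not pass but leaned the same way. Of 16 markers 13 were measured, of which 10 differed positively and 3 negatively, and 0 were called by limma. The mean of the 13 ranged from 8.83 to 9.06 in ethanol and from 8.77 to 8.97 in water. An unadjusted limma p under 0.05 was found for Egfl7, a secreted vascular factor, at 0.18, the receptor kinase Tie1 at 0.20 and the sialomucin Emcn at 0.12. Beside this count and those of the lists below, 12.1% of all probe sets tested were under 0.05. The list had 11 positive and 2 negative differences without water animals 17, 19 and 20. The tight junction protein Cldn5 differed by 0.06 and the adhesion molecule Pecam1 by -0.02. Haemoglobin Hbb, a blood marker, differed by 0.20, and Pf4, the other blood marker measured, by -0.01 (unadjusted limma p = 0.106 and 0.844). The part of vessel or blood content in the Klf2 difference was not tested.

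Of 16 vascular genes linked to Klf2 and Klf4, known targets among them, 11 were measured. By limma 0 rose or fell, and 2 had an unadjusted p under 0.05. The median difference of the 11 was 0.03, beside 0.000155 over all genes. Ccm2, Krit1, Pdcd10 and Heg1, also on this list, are not targets of these factors, so the median does not describe targets alone. The cell cycle inhibitor Cdkn1a differed by -0.34 (adjusted p = 0.228) and the endothelial receptor kinase Tie1 by 0.20 (adjusted p = 0.283). Of the kinase route that induces both factors, from MEK5 and ERK5 to the MEF2 transcription factors, 6 of 8 genes were measured and 0 were called (0 with an unadjusted p under 0.05). All 6 had a positive difference, with a median of 0.02, and the genes of smallest p were Mef2c at 0.14 and the kinase Map3k3 at 0.04.

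Klf2 and Klf4 are also counted among immediate early genes, which need no new protein to be induced. Of 32 others in that class 26 were measured, of which 5 rose, 0 fell and 21 did not pass, where 0.0931% of all genes were called. Unadjusted p-values under 0.05 were found for 11, 8 of them positive and 3 negative differences, beside 12.1% of all probe sets. Ccn1, a secreted matrix protein, rose by 1.94 from a dim 5.86 ± 0.25 in water (SD). The phosphatase Dusp1, Ier2 and the AP-1 subunit Fos rose by 0.76, 0.77 and 0.75, close to the size of the Klf2 rise. Arc, which acts at synapses and is named as the remaining called gene, rose by 1.005. The 3 negative ones, which did not pass, were the nuclear receptor Nr4a3 at -0.67, the AP-1 subunit Fosl2 at -0.61 and the repressor Nfil3 at -0.26. After adjusting for the 3′ minus 5′ value the differences of Ccn1, Arc, Fos, Dusp1 and Ier2 were about as large, at 2.01, 1.12, 0.79, 0.75 and 0.74, but none passed, with adjusted limma p-values of 0.0766 to 0.196. Arc also did not pass in 13 of 20 fits with 1 array left out. The median over the 26 was 0.10, and without water animals 17, 19 and 20 it was -9.36e-05. Of the 5 genes 4 were then still called, and Fos, at 0.66, was not (limma, adjusted p = 0.0539). Called in addition were Jun, at 0.41, and the lower Fosl2 and Nr4a3, at -0.86 and -0.95. These genes were called on the same arrays as Klf2 and are not separate evidence about it.

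Klf3 and Klf5 had negative differences on every probe set above the filter, and none passed. The 250 bases before the start of Klf5 are printed because CACCC boxes, which these factors bind, occur in them. They are from RefSeq on the rat assembly GRCr8, read on the gene's strand, at chr15:82471831-82472080 (plus strand). Capitals mark CACCC boxes, here both read as GGGTG from the other strand.
Klf5: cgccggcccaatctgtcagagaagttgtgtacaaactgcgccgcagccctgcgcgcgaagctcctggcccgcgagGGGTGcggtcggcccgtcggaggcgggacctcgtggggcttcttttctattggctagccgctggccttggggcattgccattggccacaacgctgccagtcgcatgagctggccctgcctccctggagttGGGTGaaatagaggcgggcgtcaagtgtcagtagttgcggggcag
The Klf5 window holds 2 CACCC boxes, and 49.2% of 33469 promoters of the same length hold at least 1. A match is a string of letters and not evidence that a factor binds there.

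Klf3 mostly represses, through the corepressor CtBP. Its probe set 1389479_at had a lowest, median and highest level of 8.70, 8.85 and 9.03 in ethanol and 8.83, 9.07 and 9.16 in water. The ranges overlapped, with 9 of 10 ethanol animals below the water mean. The difference was -0.18 (95% interval -0.29 to -0.06; limma, p = 0.00346, adjusted p = 0.282). Probe sets 1393150_at and 1378332_at differed by -0.14 and -0.13 (limma, adjusted p = 0.373 and 0.402), so the 3 gave similar values, and none of the 3 pairs passed the test of unequal differences.

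Klf5 activates genes of proliferating epithelium and of smooth muscle. Its probe set 1385961_at had a lowest, median and highest level of 8.63, 9.13 and 9.45 in ethanol and 8.76, 9.49 and 9.74 in water. All 10 ethanol animals lay below the water mean, and water animal 20, at 8.76, lay far below the other water animals. The difference was -0.36 ± 0.11 (SE; limma, adjusted p = 0.287). It was -0.45 without water animals 17, 19 and 20 and still did not pass (limma, adjusted p = 0.079).

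The other bright Klf5 probe sets gave -0.31 for 1368363_at and -0.22 for 1394039_at (limma, adjusted p = 0.304 and 0.44). Without water animals 17, 19 and 20 they gave -0.39 and -0.34 (limma, adjusted p = 0.178 and 0.227). The dim 1398159_at lies under the filter and had the opposite sign. It was at 6.45 ± 0.22 in ethanol and 6.25 ± 0.22 in water (SD), a difference of 0.20. Set against it in the same permutation test without the filter, where 9 of 34 pairs passed, all 3 bright Klf5 probe sets differed from it. They did so by -0.42, -0.51 and -0.56 (permutation, adjusted p = 0.00085, 0.00204 and 0.00085). These 3 pairs share that dim probe set and are not independent. Markers of pericytes and smooth muscle showed no common direction, with 5 of 9 positive, 0 called (1 with an unadjusted p under 0.05) and a median of 0.01.

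Klf6 and Klf7, which support axon growth, differed little with all animals. Klf6 probe set 1387060_at was at 9.50 ± 0.09 in ethanol and 9.48 ± 0.19 in water (SD), a difference of 0.02 with a 95% interval of -0.12 to 0.15 (limma, adjusted p = 0.938). Probe set 1388986_at differed by 0.09 (limma, adjusted p = 0.665), and 1395557_at, under the filter, was at 6.52 in both groups. Water animal 17 was the highest of its group on both bright Klf6 probe sets. On 1388986_at water animals 17, 19 and 20 were at 9.02, 8.86 and 8.72, and the other water animals at 8.62 or less. Without these animals its difference was 0.20 (limma, adjusted p = 0.304). Klf7 differed by -0.07, -0.09 and -0.09 on 1377618_at, 1380363_at and 1384497_at (limma, adjusted p = 0.626, 0.606 and 0.423). On 1391471_at, under the filter, it differed by 0.0063.

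The Klf7 values of the ethanol animals lay close together on 1377618_at. On 1377618_at their lowest, median and highest levels were 9.94, 10.001 and 10.07, against 9.88, 10.01 and 10.47 in water. Water animal 12 was the highest. The SD was 0.05 in ethanol and 0.19 in water, a ratio of 3.89. A permutation test of the deviations from the group median gave p = 0.00368, and an adjusted p of 0.0773 over the 21 probe sets. Deviations from the group mean passed (permutation, adjusted p = 0.00273). For Klf7 1380363_at and 1384497_at the SD ratios were smaller, 1.97 and 1.37. Neither passed about the median (permutation, adjusted p = 0.405 and 0.73) or about the mean (permutation, adjusted p = 0.302 and 0.726).

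By that test of spread about the median 0 of 21 probe sets passed, and 2 had an unadjusted p under 0.05. The water SD was the larger in 13 of 21 probe sets, where 81.3% of all probe sets tested had the larger SD in water. The median ratio of the water to the ethanol SD was 1.14 over the 21 and 1.47 over all. The Klf2 and Klf4 probe sets with the highest mean had the larger SD in ethanol, with ratios of 0.817 and 0.806. So did those of Klf3 and Klf5, with ratios of 0.91 and 0.97.

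Of 13 genes of neurite and axon growth 9 were measured and 0 were called (limma; 1 had an unadjusted p under 0.05), with a median of -0.07. The neurotrophin receptor Ntrk2 differed by -0.19 and the growth cone protein Gap43 by -0.13. Without water animals 17, 19 and 20 that median was -0.003.

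Klf9 and Klf15 respond to glucocorticoids and Klf10 to TGF beta, and none of the 3 passed. The 250 bases before the Klf9 start are printed because they hold the letters TGANTCA, a loose form of the AP-1 motif with any base in the middle, found in no other member's window and in 6.34% of all promoters. The stretch found, TGAATCA, is not the AP-1 consensus TGACTCA, which was in 0 of the members' windows and in 4.05% of all promoters. They lie at chr1:230126396-230126645 (GRCr8, plus strand). Capitals mark this stretch and a CACCC box that overlaps it.
Klf9: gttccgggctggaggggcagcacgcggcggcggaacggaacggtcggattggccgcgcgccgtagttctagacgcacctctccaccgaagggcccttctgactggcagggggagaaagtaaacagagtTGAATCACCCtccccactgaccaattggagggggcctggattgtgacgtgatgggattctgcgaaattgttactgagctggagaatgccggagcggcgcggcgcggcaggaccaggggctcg
Promoter windows were matched for 7 of the 10 members, namely Klf3, Klf4, Klf5, Klf6, Klf7, Klf9 and Klf15. The windows of Klf3, Klf4 and Klf15 lie inside the span that RefSeq annotates for the gene, since it also lists an earlier start, so they may hold transcribed sequence. A CACCC box was found in 5 of these 7, and in 3 of the 4 windows outside the annotated gene, and a GC box (GGGCGG) in 2, Klf6 and Klf7, against 30.5% of all promoters. The E-box CACGTG of clock factors was found in Klf6 and Klf15 (5.59% of all), and the CArG box of serum response factor in Klf6 (1.5% of all). The cAMP response element TGACGTCA and AGAACA, a part of the glucocorticoid receptor motif, were in 0 of the 7 windows (1.59 and 17.5% of all). Both strands were searched, and no match says only that these letters are not in this window.

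Klf9 limits neurite growth and is induced by glucocorticoids and thyroid hormone. On 1370209_at its lowest, median and highest levels were 13.38, 13.59 and 13.75 in ethanol and 13.13, 13.69 and 13.79 in water. Water animals 17, 19 and 20 were at 13.26, 13.56 and 13.13, below all 7 other water animals (13.64 to 13.79). The difference was 0.004 with a 95% interval of -0.16 to 0.17 (limma, adjusted p = 0.987), and -0.12 without these 3 animals (limma, adjusted p = 0.39). The dimmer 1387882_at differed by 0.26 (limma, adjusted p = 0.402), and by -0.04 after adjusting for the 3′ minus 5′ value. On 1390076_at, under the filter, it differed by 0.06.

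Klf10, a repressor first known as a gene induced early by TGF beta, had 1 probe set. Its lowest, median and highest levels were 8.89, 9.12 and 9.51 in ethanol and 8.39, 9.49 and 9.69 in water. Water animals 17, 19 and 20, at 8.81, 9.18 and 8.39, again lay below the other water animals, which were at 9.32 to 9.69. The difference was -0.14 with all animals and -0.37 without these 3 (limma, adjusted p = 0.663 and 0.0765). Of 13 genes of the TGF beta route 9 were measured and 0 were called (limma; 2 had an unadjusted p under 0.05), with a median of 0.03, and -0.0025 without these 3 animals. The inhibitor Smad7 differed by -0.15 and the signal transducer Smad2 by 0.10.

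Klf13, first described as a regulator of a chemokine gene in T cells, was at 9.94, 10.09 and 10.22 in ethanol and 9.93, 10.21 and 10.47 in water (lowest, median and highest). Water animals 17, 19 and 20, at 9.97, 9.94 and 9.93, were below the other water animals (10.16 to 10.47). The difference was -0.11, and -0.21 without these 3 (limma, adjusted p = 0.473 and 0.1).

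Klf15, a regulator of amino acid and glucose metabolism, ran the other way in these animals. Its lowest, median and highest levels on 1368249_at were 9.27, 9.42 and 9.72 in ethanol and 9.22, 9.45 and 10.06 in water. Water animals 17, 19 and 20, at 9.76, 9.88 and 10.06, were above all other animals of both groups. The difference was -0.11 with all animals and 0.05 without these 3 (limma, adjusted p = 0.635 and 0.785). The dim 1381396_s_at and 1381395_at differed by -0.07 and -0.09.

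Of 15 glucocorticoid partners and targets 12 were measured, of which 1, Dusp1, rose and 0 fell (limma; 4 had an unadjusted p under 0.05). Differences were positive for 4 and negative for 8, with a median of -0.04. Dusp1 is also counted among the immediate early genes. Of the others, Pdk4, a kinase that limits glucose oxidation, differed by -0.71 with an unadjusted limma p of 0.000766. Cdkn1a and Sgk1 differed by -0.34 each (unadjusted limma p = 0.00163 and 0.00838). Pdk4, Cdkn1a and Sgk1 did not pass.

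**Figure D3:**
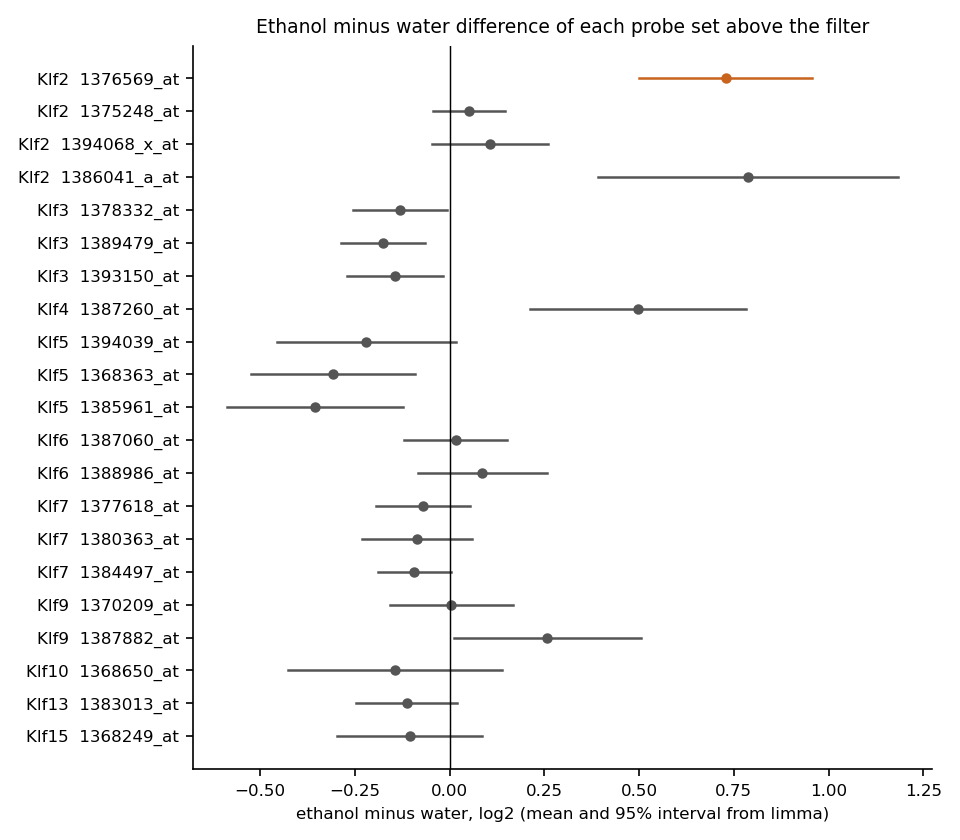
Difference between ethanol and water (horizontal axis, log2 scale) for each of the 21 Krüppel-like probe sets tested; points are means over 10 animals a group, lines are 95% intervals from limma, and the called probe set is in orange. The intervals of Klf2 1376569_at (0.50 to 0.96), Klf2 1386041_a_at (0.39 to 1.18), Klf4 (0.21 to 0.78) and Klf9 1387882_at (0.01 to 0.50) lie to the right of 0, and those of all 3 Klf3 probe sets and of Klf5 1368363_at (-0.52 to -0.09) and 1385961_at (-0.59 to -0.12) to the left.

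Of the other Krüppel-like factors and related proteins none passed the adjusted threshold. Of 8 further family members 4 were measured and 0 were called (0 with an unadjusted p under 0.05): Klf11 differed by -0.08, Klf16 by 0.09, Klf12 by 0.03 and Klf1 by 0.0079. Of the Sp factors, which bind the same GC boxes, 2 of 9 were measured. Sp1 differed by -0.18 with a 95% interval of -0.29 to -0.07 (limma, adjusted p = 0.259) and Sp2 by -0.08. Of 12 corepressors and acetyltransferases 10 were measured and 0 were called (0 with an unadjusted p under 0.05), with a median of -0.0082, among them the deacetylase Hdac3 at 0.07 and the scaffold Sin3a at -0.11. Of 10 genes of protein turnover 8 were measured and 0 were called (2 with an unadjusted p under 0.05), with a median of 0.0012, among them the ubiquitin ligase Smurf2 at -0.11 and the deubiquitinating enzyme Atxn3 at 0.13.

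Markers of the other cell types held no called gene by limma. All 17 measured markers of medium spiny neurons had a positive difference, with a median of 0.27 (1 with an unadjusted p under 0.05). Without water animals 17, 19 and 20, which had the lowest means of this list, 5 were positive and 12 negative and the median was -0.03. All 11 of oligodendrocytes had a negative difference, with a median of -0.17 (1 with an unadjusted p under 0.05), and without the same animals 3 were positive and 8 negative, with a median of -0.02. Microglial markers were positive in 2 and negative in 9 (median -0.08, 2 under 0.05) and astrocyte markers in 3 and 6 (median -0.03, 0 under 0.05). Blood and cortical markers had 2 measured genes each. Their part in the values of the Krüppel-like factors was not tested.

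The members also varied together from animal to animal within the groups. Pearson's r was taken over the 20 arrays, with group means taken off, for the 45 pairs of members, each read from its probe set with the highest mean (permutation within groups, Benjamini-Hochberg over the pairs). The test passed for 10 pairs, 6 positive and 4 negative, all with an r of at least 0.55 in size. That is 22.2% of the member pairs, and 11.6% of all pairs of the 10746 genes had an r of that size on these arrays, so correlations of this strength were common. Without water animals 17, 19 and 20 it passed for 3, and those were Klf9 with Klf10, Klf2 with Klf4 and Klf7 with Klf13, all positive.

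Klf9 and Klf10 varied most closely, with r = 0.94 (Spearman's rho 0.86). The permutation p was 1e-05, the smallest that 100000 resamples can give, and the adjusted p was 0.00045. The r was 0.79 within ethanol and 0.98 within water, 0.85 without the 2 arrays farthest from the median of Klf9, and 0.78 without water animals 17, 19 and 20 (permutation, adjusted p = 0.0156). The relation held in both groups and did not need these animals. It was not the closest for Klf9, which had a higher r with genes outside the family, such as Drd1 at 0.96.

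Klf2 and Klf4 had r = 0.75 (Spearman's rho 0.72, permutation, p = 0.00031, adjusted p = 0.00675). It was 0.73 within ethanol and 0.78 within water, 0.62 without the 2 arrays farthest from the median of Klf2, and 0.75 without water animals 17, 19 and 20 (permutation, adjusted p = 0.0156). Animals with more Klf2 than their group also had more Klf4. Klf7 and Klf13 had r = 0.75 (rho 0.72, permutation, p = 0.00099, adjusted p = 0.00891), 0.64 within ethanol and 0.79 within water, 0.80 without the 2 farthest arrays, and 0.72 without water animals 17, 19 and 20 (permutation, adjusted p = 0.0156).

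Klf15 ran against Klf9, Klf10 and Klf13, and that rested in part on 3 animals. The r was -0.81, -0.79 and -0.69 (rho -0.65, -0.63 and -0.45; permutation, p = 0.00047, 0.0006 and 0.00419, adjusted p = 0.00675, 0.00675 and 0.0236). Without the 2 arrays farthest from the median of the partner it was -0.66, -0.59 and -0.51. Without water animals 17, 19 and 20 it was -0.53, -0.38 and -0.10, and none passed (permutation, adjusted p = 0.238, 0.345 and 0.814). Klf13 and Klf15 had r = 0.24 within ethanol and -0.92 within water.

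The remaining pairs past the threshold were weaker. Klf3 and Klf5 had r = -0.58 (rho -0.63, permutation, p = 0.00967, adjusted p = 0.0435), -0.67 within ethanol and -0.47 within water, and -0.49 without the 2 farthest arrays. Klf4 had r = 0.61 with Klf10 and 0.55 with Klf9 (rho 0.75 and 0.62; permutation, p = 0.00189 and 0.00757, adjusted p = 0.0142 and 0.0378), and 0.57 and 0.47 without the 2 farthest arrays. Klf5 and Klf13 had r = 0.59 (rho 0.59; permutation, p = 0.00413, adjusted p = 0.0236), and 0.50 without the 2 farthest arrays. These r were -0.61, 0.68, 0.48 and 0.40 without water animals 17, 19 and 20, and none passed over the 17 arrays left (permutation, adjusted p = 0.0907, 0.0866, 0.331 and 0.339). All values of 1 array share its RNA and its labelling.

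**Figure D4:**
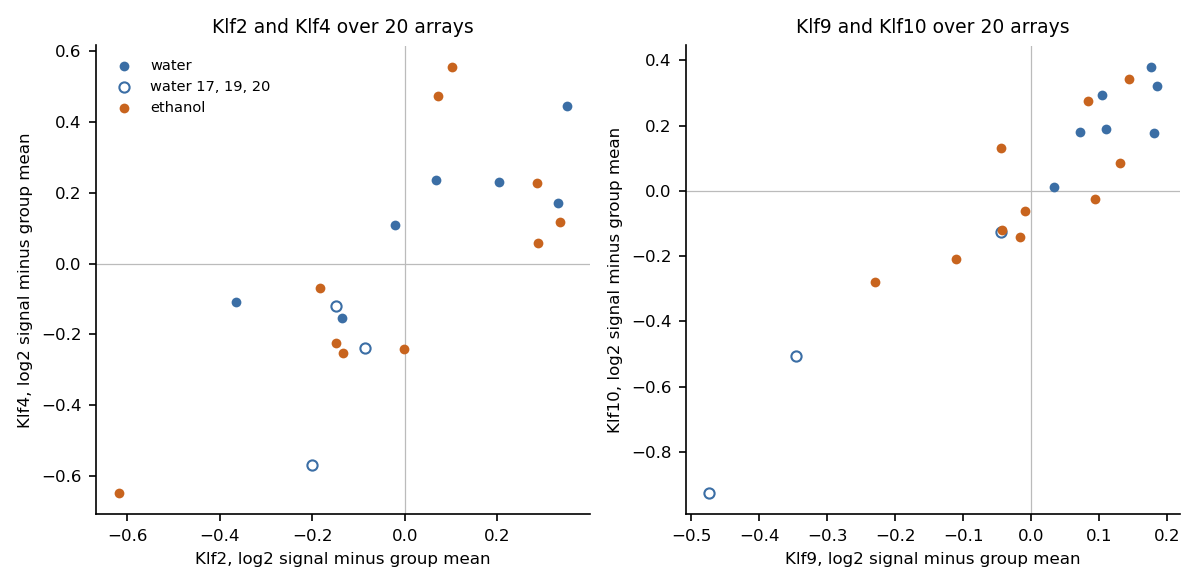
Log2 level less the mean of the animal's own group, Klf4 against Klf2 and Klf10 against Klf9; each point is 1 of 20 animals, and open circles are water animals 17, 19 and 20. Both clouds rise from left to right (r = 0.75 and 0.94), and water animals 17 and 20 lie at the lower left of the Klf9 and Klf10 plot.

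As a description, each member was set against the 10745 other genes over the same 20 arrays, with group means taken off. For Klf2 the highest values were those of Klf4 (r = 0.75), the ubiquitin ligase Siah2 (0.73) and Fos (0.73), and they were 0.75, 0.81 and 0.72 without water animals 17, 19 and 20. Klf4 was most like Tiparp (0.79), Zfp322a (0.78) and the tubulin Tubb6 (0.78). The genes nearest to Klf9 were Ankrd33b (0.97), the kinase Plk2 (0.96) and the dopamine receptor Drd1 (0.96), a marker of medium spiny neurons. Without the 3 animals these were 0.90, 0.85 and 0.89. Klf10 was nearest to Klf9 (0.94), Drd1 (0.93) and Ankrd33b (0.92), and these values were 0.78, 0.68 and 0.69 without the 3 animals.

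Klf13 was most like the synaptic scaffold Dlgap4 (0.96), Fam110b (0.88) and Nucb2 (0.88), and Klf15 most like Paip2 (0.94), the cell cycle inhibitor Cdkn1b (0.93) and the pyrophosphatase Ppa1 (0.93). Klf5 was nearest to Atxn7l1 (0.88), the sialyltransferase St6galnac5 (0.86) and Hpcal4 (0.85). Klf7 lay nearest to the predicted locus LOC102555913 (0.88), Zfp821 (0.88) and Arid4a (0.87), and Klf6 nearest to the calcium pump Atp2b3 (0.84), the synaptic scaffold Dlgap1 (0.84) and Frs3 (0.82). For Klf3 the highest values were 0.76 for each of Pals2, Cd248 and the kinesin Kif5c. Of these partners Fos alone was called between ethanol and water.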

How the data were processed

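Total RNA from 20 animals was labelled from the 3′ end and hybridised to 1-colour Affymetrix arrays, per the labels' protocols. The deposited values are log2 signals that the authors made with RMA, per the submitters' processing notes. Its software, version and chip definition: not given in the sources used here. RMA normalizes between arrays, so a shift shared by most genes would not be seen. All columns were used (0 left out), and no block by replicate was made, since animal numbers are not shared between groups. Probe sets below 6.65 on average and 57 controls were left out, leaving 20695 probe sets and 10746 genes. A gene was read from its probe set with the highest mean.

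Groups were compared with limma 3.58.1 (R 4.3.3; lmFit and eBayes, no covariates, two-sided), and single values, pairs, spread and co-variation with permutation tests in Python 3.11.15. The members and lists were chosen with earlier results of these data known. Named genes are the members, per list up to 4 called genes or else the 2 of smallest p, and per member the 3 genes of highest r. Named outside it, with values seen, are Arc, Pdk4, Sgk1, Nr4a3, Fosl2, Nfil3, Jun, Klf1, Klf12 and all cell type markers. Promoters are RefSeq's for GRCr8. The fit was tested on simulated data. Alternatives changed the filter, normalization, variance model, weights, threshold, probe set choice, covariate, block and arrays. The order of deposit alternates the groups in 3 runs and was used as a block.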

Additional observations from a re-analysis of the deposited data

Results flagged for a closer look

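Among 56 sets of 10 animals, the 28 probe sets in each group, 3 held an animal far from the others by Dixon's test at its 95% level, which flags about 1 in 20 by chance. On Klf2 1386041_a_at ethanol animal 1 was at 6.23 and the next ethanol animal at 7.17. Ethanol animal 1 was also the lowest ethanol animal on Klf2 1376569_at and 1394068_x_at and on Klf4. The same held on Klf5 1394039_at, 1368363_at and 1385961_at, where ethanol was the lower group, on Klf7 1384497_at and on Klf15 1368249_at. On Klf5 1385961_at water animal 20 was at 8.76 and the next water animal at 9.36. On Klf6 1395557_at, which lies under the filter, water animal 21 was at 5.55 and the next water animal at 6.31.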

How the results depend on the processing

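The number of Klf probe sets past the threshold was 1 in each of the 9 planned refits and at an adjusted p of 0.1. It was 1 to 2 when 1 array at a time was left out, an alternative chosen after seeing the data, and was 2 without ethanol animal 1. No Klf gene passed (0) as the mean over its probe sets above the filter. The pairs of probe sets past the threshold, 4 with all arrays, were 2 without water animals 17, 19 and 20 and 9 without the filter, where more pairs are tested. Unequal spread passed for 1 probe set about the group mean in place of the median. Pairs of members that varied together fell from 10 to 3 without water animals 17, 19 and 20. The sign turned for values near 0: Klf9 1370209_at was -0.058 with array weights, -0.097 without the outlying arrays, -0.12 without water animals 17, 19 and 20, and -0.049 to 0.030 with 1 array left out. Klf6 1387060_at was -0.026 to 0.040 with 1 array left out. Klf9 1387882_at was -0.037 after adjusting for the 3′ minus 5′ value, and Klf15 1368249_at and Klf16 were 0.051 and -0.070 without water animals 17, 19 and 20. The cause was not tested. Fos, Ier2, Dusp1, Ccn1 and Arc did not pass in 2 or 3 other settings each, the 3′ minus 5′ adjustment among them, where their differences were about as large (0.74 to 2.01), and Arc did not in 13 of 20 fits with 1 array left out. The number of arrays limits the precision, and the values give no background signal, so dim probe sets may understate a change.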
